A study of Rattus norvegicus with 10 samples.

Results

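Transcripts of the activity-regulated kinase Plk2, of its relatives Plk3 and Plk5, and of the SIPA1 family of Rap GTPase-activating proteins, which includes the spine protein SPAR, were followed in the hippocampus of rats after amygdala stimulation, a model of epilepsy. The members were 7 rat gene symbols, Plk2, Plk3, Plk5, Sipa1, Sipa1l1, Sipa1l2 and Sipa1l3, and each was represented by the RefSeq transcript row with the highest mean count. A row was matched for 6 of the 7 symbols, 1 row each, among the 32041 transcript rows (features) of the count matrix, and all 6 passed the filter on low counts that left 22447 features to test. Sipa1l3 was not analysed here. The members were chosen with earlier results of these data known. Plk2, Plk3 and Sipa1l2 had been listed as changed by the study on rats of this same series, so their direction is not independent evidence. The edgeR test of the study counted fewer stimulated rats and gave each of them an adjusted p under 0.05.

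Messenger RNA was sequenced from 10 male Sprague-Dawley rats, an outbred strain, each rat a separate replicate. All 10 carried electrodes in the left lateral amygdala, with implantation under isoflurane. The 5 stimulated rats (rats 6 to 10) received trains of pulses of 400 µA at 60 Hz for 30 min, longer where no status epilepticus, a prolonged seizure, had begun, and diazepam ended it. The 5 sham rats (rats 1 to 5), matched to them in age, received no current. Tissue was taken 3 months later from the left hippocampus, as a whole piece holding CA3 and the dentate gyrus, which the labels call dorsal hippocampus. Stimulated rats were watched by video EEG near the end, and the study reports spontaneous seizures in every stimulated animal it enrolled. The number of seizures of each rat, and the time between the last one and tissue collection, are not given in the sources used here.

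Polo-like kinase 2 is made in neurons after strong or prolonged synaptic activity. In the scheme known from cultured hippocampal neurons, the kinase phosphorylates SPAR at sites first primed by CDK5, a ubiquitin ligase containing beta-TrCP then recognises SPAR, and its loss from spines weakens synapses, a form of homeostatic plasticity. SPAR proteins switch off the small GTPases Rap1 and Rap2 and bind PSD-95 and actin. This regulation acts on the protein, so transcript counts measure how much of each messenger RNA was present and say nothing of SPAR protein.

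Promoter sequences are shown for Plk2 and Plk3, which were highest in the rats with high activity-regulated transcripts, and for Sipa1l2, which was lowest in them. Each is the 250 bases before the annotated start in RefSeq on the GRCr8 assembly, which is not the rn4 build to which the reads were aligned. Plk2 lies at chr2:43702286-43702535 on the plus strand, Plk3 at chr5:135848901-135849150 on the minus strand and Sipa1l2 at chr19:70437774-70438023 on the minus strand. Capitals mark TGACG, the core of the cAMP response element (CRE) bound by CREB, or the full palindrome TGACGTCA, in the first 2 sequences, and CCAAT boxes in the third.
Plk2: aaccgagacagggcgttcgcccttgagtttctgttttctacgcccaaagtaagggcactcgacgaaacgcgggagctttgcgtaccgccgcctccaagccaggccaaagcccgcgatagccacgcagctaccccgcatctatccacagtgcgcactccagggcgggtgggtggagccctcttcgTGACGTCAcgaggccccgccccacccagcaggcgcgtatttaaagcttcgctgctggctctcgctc
Plk3: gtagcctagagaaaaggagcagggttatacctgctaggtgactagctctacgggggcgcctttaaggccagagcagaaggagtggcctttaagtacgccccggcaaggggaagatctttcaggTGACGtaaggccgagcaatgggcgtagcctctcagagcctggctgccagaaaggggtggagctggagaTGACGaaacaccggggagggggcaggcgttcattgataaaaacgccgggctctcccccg
Sipa1l2: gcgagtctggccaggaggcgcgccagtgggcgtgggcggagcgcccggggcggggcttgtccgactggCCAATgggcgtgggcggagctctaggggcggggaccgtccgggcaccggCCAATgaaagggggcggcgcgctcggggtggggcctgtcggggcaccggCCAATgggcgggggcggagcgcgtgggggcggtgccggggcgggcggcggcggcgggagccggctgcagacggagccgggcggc

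The Plk2 promoter held 1 full CRE at positions -66 to -59 before the start, and the 2 TGACG matches in it are those of the palindrome, read on both strands. Of 33469 promoters of this length in the table, 1.59% held TGACGTCA. The Plk3 promoter held no full CRE but 2 separate TGACG matches, at -127 to -123 and -59 to -55, a motif that 18.2% of promoters held. In Sipa1l2 there were 3 CCAAT boxes (in 34% of promoters), 11 matches to the GC box GGGCGG (in 30.5%), among them an overlapping pair, and 3 to the EGR motif GCGNGGGCG (in 4.29%), each overlapping a GC box. The Plk2 promoter also held 2 GC boxes. Sipa1l1 had 2 annotated promoters, the first with 1 TGACG match at -191 to -187 and each with 1 GC box, and the Sipa1l3 promoter held none of the 7 motifs searched. Neither the AP-1 motif TGANTCA, held by 6.34% of promoters, nor the CArG box that binds SRF, held by 1.5%, was matched in any of these 6 promoters. The table had no promoter for Plk5 or Sipa1. All motifs were searched on both strands, a match is a description of the letters, and no binding was measured.

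**Figure D1:**
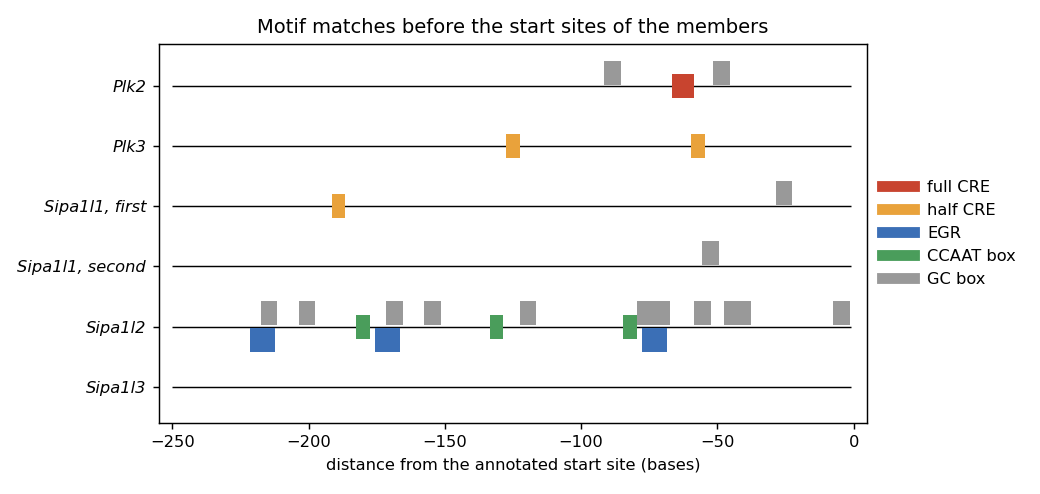
Positions of motif matches in the 250 bases before the annotated start sites of the members with a promoter in RefSeq (x axis, distance from the start in bases; 1 line per promoter). A single full CRE lies at -66 to -59 in Plk2, 2 TGACG matches lie in Plk3, and 11 GC boxes crowd the Sipa1l2 promoter.

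Plk2 transcripts were higher in 4 of the 5 stimulated rats than in any sham rat, but by very different amounts. In CPM units (reads scaled to a common library size, not corrected for transcript length), Plk2 (NM_031821) measured 76.4, 84.2, 82.4, 90.5 and 90.9 in sham rats 1 to 5, a narrow band. In stimulated rats 6 to 10 it measured 93.5, 290, 69.7, 403 and 180 CPM. Rats 7, 9 and 10 stood far above the sham band, rat 6 lay just above it and rat 8 lay below it, so the groups overlapped. Against the sham mean, Plk2 was 3.41 times as high in rat 7, 4.74 times in rat 9 and 2.12 times in rat 10, but 1.10 times in rat 6 and 0.821 times in rat 8. The group means were 207.1 ± 139.3 CPM in stimulated and 84.87 ± 6.057 CPM in sham rats (SD, n = 5 each), 2.44-fold in the fit (log2 fold change 1.29, SE 0.367, 95% interval 0.5 to 2.07). In the quasi-likelihood test of edgeR the unadjusted p was 0.00356 and the p adjusted by Benjamini-Hochberg over every feature was 0.38, so Plk2 did not pass the adjusted threshold of 0.05. In a bulk piece of tissue, fewer cells of a type and less RNA per cell cannot be told apart, here and for every value that follows.

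Plk3, a stress- and activity-responsive kinase of the same family, followed the same rats over a wider range from a lower base. Plk3 (NM_022187) measured 3.66, 3.66, 3.21, 3.14 and 2.64 CPM in sham rats 1 to 5. In stimulated rats 6 to 10 the values were 3.94, 19.5, 2.11, 33.0 and 8.26 CPM. The order of the stimulated rats was that of Plk2, with rat 9 highest, then rats 7, 10 and 6, and rat 8 below all sham rats. Rat 9 held 10.1 times the sham mean and rat 7 held 5.99 times, while rat 8, at 33 reads, held 0.646 times (exact Poisson interval 1.45 to 2.96 CPM, counting error only). The fitted difference was 4.12-fold (log2 fold change 2.04, SE 0.567, 95% interval 0.82 to 3.26), with an unadjusted p of 0.00299 and an adjusted p of 0.38 in edgeR. By the likelihood ratio test of the same package the adjusted p of Plk3 was 0.0469, and by the exact test and DESeq2 it was 0.0565 and 0.164. For Plk2 these 3 tests gave adjusted p-values of 0.0674, 0.0718 and 0.182.

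Plk5, a family member that lacks a working kinase domain and is found mainly in brain, took the opposite course. Plk5 (NM_001170557) measured 22.2, 14.0, 19.5, 19.6 and 16.8 CPM in sham rats 1 to 5. In stimulated rats 6 to 10 it measured 12.9, 0.464, 17.6, 9.28 and 3.25 CPM. Rats 7, 9, 10 and 6 lay below all sham rats and rat 8 lay within the sham range, so the groups overlapped. In rat 7 only 10 reads were counted, against 183 to 475 in the sham rats. That is 2.52% of the sham mean (exact Poisson interval 0.223 to 0.854 CPM, counting error only), while rat 10 kept 17.6% and rat 9 kept 50.4%. The lowest Plk5 was therefore in rat 7 and not in rat 9, which had the highest Plk2. The fitted log2 fold change was -1.10 (SE 0.542, 95% interval -2.26 to 0.07), with an unadjusted p of 0.0632 and an adjusted p of 0.529 in edgeR. The exact permutation test of mean log2 CPM, two-sided over the 10 rats and unadjusted, gave 0.0238 (0.111 for Plk2 and 0.119 for Plk3).

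**Figure D2:**
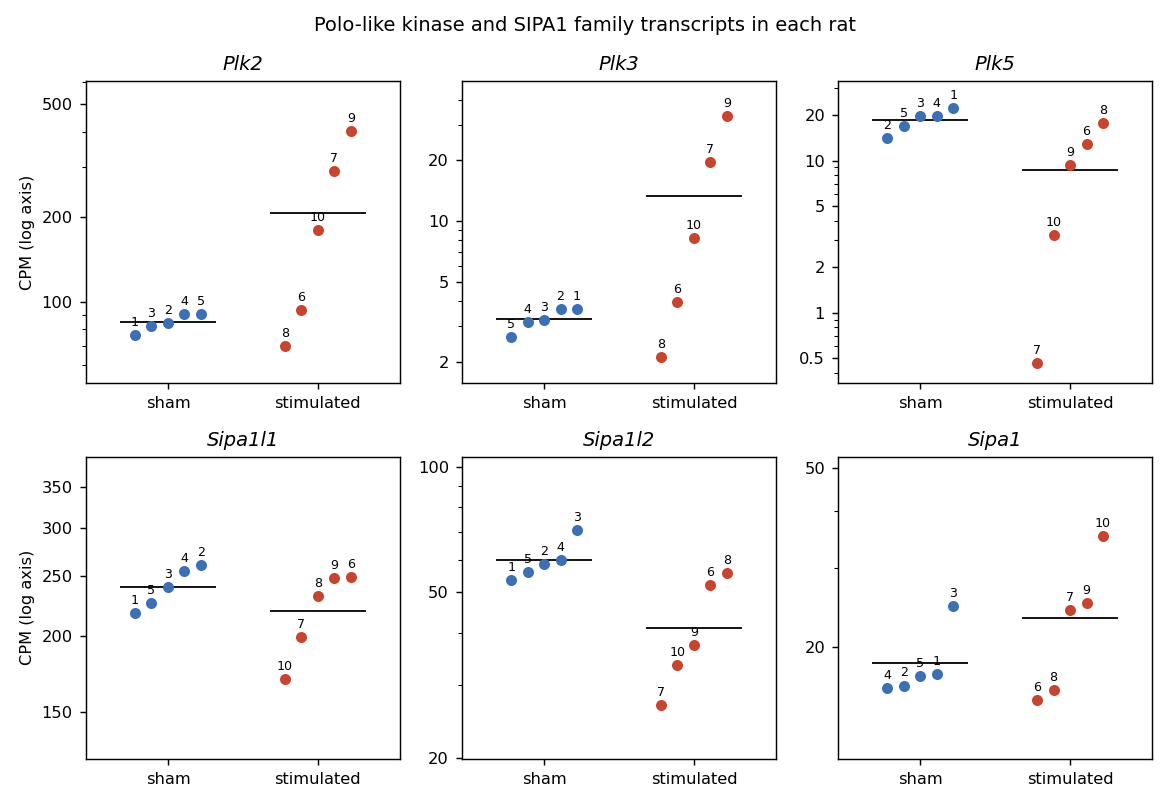
CPM of the 6 members in each rat (log axis, a separate range per panel); points are rats, with their numbers, ordered by value within each group, and bars are group means. Plk2 and Plk3 reach 403 and 33.0 CPM in rat 9, Plk5 is 0.464 CPM in rat 7, and rat 8 lies near the sham rats in each panel.

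The makeup of the Polo-like kinase reads differed between rats in the same way. Among reads of the 3 kinases, the share of Plk5 was 13.7 to 21.7% in sham rats, with a mean of 17.3% ± 3.09 (SD, n = 5). In stimulated rats 6 to 10 it was 11.7, 0.15, 19.7, 2.09 and 1.70%. Plk2 took 79.6% ± 3.28 of these reads in sham and 88.2% ± 6.76 in stimulated rats, and Plk3 took 3.08% ± 0.523 and 4.79% ± 2.05 (SD, n = 5 each). These shares count reads, which depend on transcript length, and describe the mix in each rat rather than the molar balance of the kinases.

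SPAR itself differed little between the groups. Sipa1l1 (NM_139330), which encodes SPAR, the Rap GTPase-activating protein of spines that Plk2 targets, measured 218, 261, 240, 255 and 226 CPM in sham rats 1 to 5. The stimulated rats 6 to 10 gave 249, 199, 232, 248 and 170 CPM. Rats 10 and 7 lay below all sham rats and the other 3 lay within their range, including rat 9, in which Plk2 was highest. The fitted log2 fold change was -0.13 (SE 0.107, adjusted p = 0.722, edgeR), and its 95% interval ran from -0.36 to 0.10. The interval leaves room for a modest difference in either direction, and does not show that the groups were alike.

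Sipa1l2, which encodes the relative SPAR2, was lower in the same rats in which Plk2 was high. Sipa1l2 (NM_001009704) measured 53.7, 58.5, 70.6, 59.8 and 56.0 CPM in sham rats 1 to 5. Stimulated rats 6 to 10 held 52.1, 26.9, 55.6, 37.5 and 33.4 CPM. Rats 7, 10 and 9 were clearly below the sham rats, at 0.451, 0.56 and 0.627 times the sham mean, rat 6 lay just under them at 0.872 times, and rat 8 lay within their range at 0.931 times. The fitted difference was 0.688-fold (log2 fold change -0.54, SE 0.174, 95% interval -0.91 to -0.17). Its unadjusted p was 0.00789 and its adjusted p 0.399 in edgeR, and the exact two-sided permutation test gave 0.0159 unadjusted. Adjusted p-values by the likelihood ratio test, the exact test and DESeq2 were 0.173, 0.182 and 0.179.

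Sipa1, the founding Rap GTPase-activating protein of the family and best known from lymphocytes and epithelial cells, was high in rats 7, 9 and 10 and in 1 sham rat. Sipa1 (NM_001004089) measured 17.4, 16.4, 24.6, 16.2 and 17.2 CPM in sham rats 1 to 5, with rat 3 apart from the rest. The values of stimulated rats 6 to 10 were 15.2, 24.1, 16.0, 25.0 and 35.3 CPM. Rats 10 and 9 lay above all sham rats, rat 7 lay just under sham rat 3 and above the other sham rats, and rats 6 and 8 lay below all of them. The log2 fold change was 0.33 (SE 0.212, 95% interval -0.12 to 0.79, adjusted p = 0.617, edgeR).

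Within the reads of the 3 SIPA1 family members, Sipa1l2 made up 17.4 to 21.1% in sham rats (mean 18.8% ± 1.40, SD, n = 5) and 16.5, 10.8, 18.3, 12.1 and 14.0% in stimulated rats 6 to 10. Only rat 8 had a share inside the sham range. Sipa1l1 took 75.4% ± 2.36 and 77.1% ± 3.59 of these reads in sham and stimulated rats, and Sipa1 took 5.78% ± 1.01 and 8.51% ± 4.05 (SD, n = 5 each). The highest Sipa1 share, 14.8%, was in rat 10, which also had the lowest SPAR.

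Across the 6 members, 0 passed an adjusted p of 0.05, as did 0 of all 22447 features (0%). At an unadjusted p under 0.05, 2 members were higher (Plk2 and Plk3) and 1 was lower (Sipa1l2), where 6.7% of all features were higher and 3.16% lower. Without rat 6 these 3 members became 5, with Plk5 and Sipa1 added, while the number of all features rose from 2214 to 3131. By the exact permutation test, two-sided and unadjusted, 0 members were higher and 2 were lower (Plk5 and Sipa1l2) at this threshold. By the other tests, 119 features (0.53%) passed the adjusted threshold in the likelihood ratio test, 90 (0.401%) in the exact test and 32 (0.152%) in DESeq2, and of the members only Plk3, in the likelihood ratio test. The median size of the log2 fold change was 0.82 among the members and 0.15 among all features. For none of the 6 did the values of the 2 groups separate completely, which they did for 1.29% of features.

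The members shared a wide spread among the stimulated rats, which was not particular to them. The SD of log2 CPM was at least 2 times as large in stimulated as in sham rats for 6 of 6 members, against 27.7% of all features, whose median ratio was 1.37. For Plk2 the SD was 1.07 against 0.104, a ratio of 10.2. The ratio was 8.46 for Plk3 and 7.88 for Plk5, and 2.91, 2.14 and 2.02 for Sipa1l2, Sipa1l1 and Sipa1, the last being close to 2. Some of the genes around Plk2 and SPAR had ratios as high as those of the SIPA1 family or higher. Rapgef6 had 5.12, Rap1gap 4.23 and Mink1 2.87, while Skp1 had 0.78 and Shank1 0.539. Among neuronal genes, Syt1 had 2.96 and Nefl 0.803. The ratios were not tested.

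**Figure D3:**
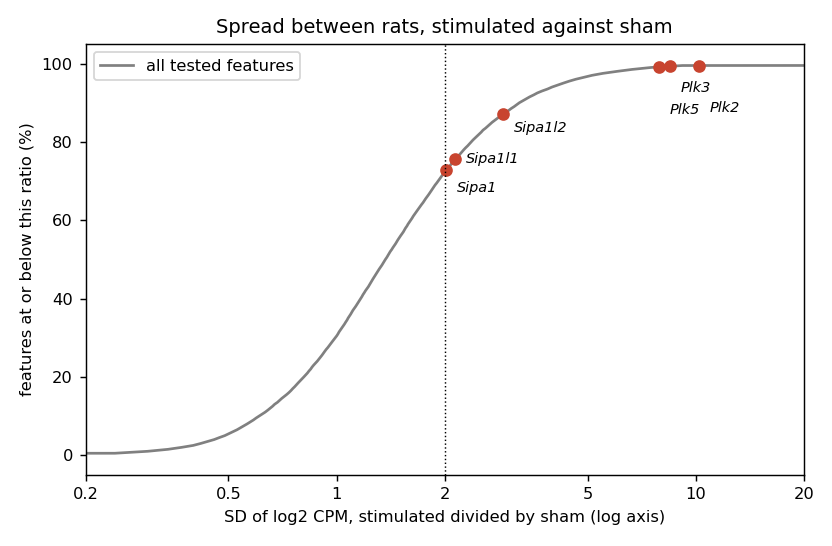
Cumulative share of tested features (y axis, %) against the ratio of the SD of log2 CPM in stimulated rats to that in sham rats (x axis, log scale); points are the 6 members and the dotted line is a ratio of 2. Plk2, Plk3 and Plk5 sit at ratios of 10.2, 8.46 and 7.88, at the far right of the curve.

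The 3 rats with high Plk2 were also those with high immediate early transcripts, the genes that neurons switch on within minutes of firing. Fos, the subunit of AP-1, measured 3.26, 3.89, 4.14, 4.01 and 5.32 CPM in sham rats 1 to 5 and 5.61, 106, 5.24, 50.3 and 61.7 CPM in stimulated rats 6 to 10. Arc, which drives removal of AMPA receptors from synapses, measured 41.0 to 59.1 CPM in sham rats and 68.3, 188, 44.4, 1120 and 208 CPM in rats 6 to 10. Rats 7, 9 and 10 were highest for both, but Fos was highest in rat 7 and Arc in rat 9. The mean log2 CPM of a list of 12 immediate early genes was 2.98 to 3.45 in sham rats and 3.45, 5.09, 2.98, 5.33 and 5.22 in rats 6 to 10. Of the 12 genes, 10 were higher at an unadjusted p under 0.05 and 0 after adjustment in edgeR, and their summed level was 169 to 216 CPM in sham and 163 to 1770 CPM in stimulated rats. In rats 7, 9 and 10 the sum was 781, 1770 and 733 CPM, the same order as that of Plk2, though the mean log2 CPM of the list differed little among them.

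The features with a profile over the 10 rats most like that of Plk2 were Dnajb5, Mapk4, Pdp1, Tamalin and Midn. Likeness was the root mean square difference in log2 CPM, each gene centred on its sham mean, among 9624 features with a symbol and a mean count of at least 100. The differences were 0.173 for Dnajb5, 0.22 for Mapk4, 0.225 for Pdp1, 0.238 for Tamalin and 0.239 for Midn, where the median feature differed from Plk2 by 0.991. Dnajb5, a heat shock co-chaperone, measured 92.9, 93.8, 112, 96.9 and 117 CPM in sham rats and 97.6, 333, 92.6, 443 and 168 CPM in rats 6 to 10. Mapk4, an atypical MAP kinase, ranged from 41.0 to 59.2 CPM in sham rats and measured 53.8, 197, 54.6, 301 and 85.6 CPM in rats 6 to 10. Pdp1, the phosphatase that activates pyruvate dehydrogenase, reached 92.9 CPM in rat 9. Tamalin, a scaffold of group I metabotropic glutamate receptors, reached 128 CPM in rat 9, and Midn reached 72.2 CPM in rat 7. Of these 5 only Midn was higher in rat 7 than in rat 9, the reverse of the order of Plk2.

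**Figure D4:**
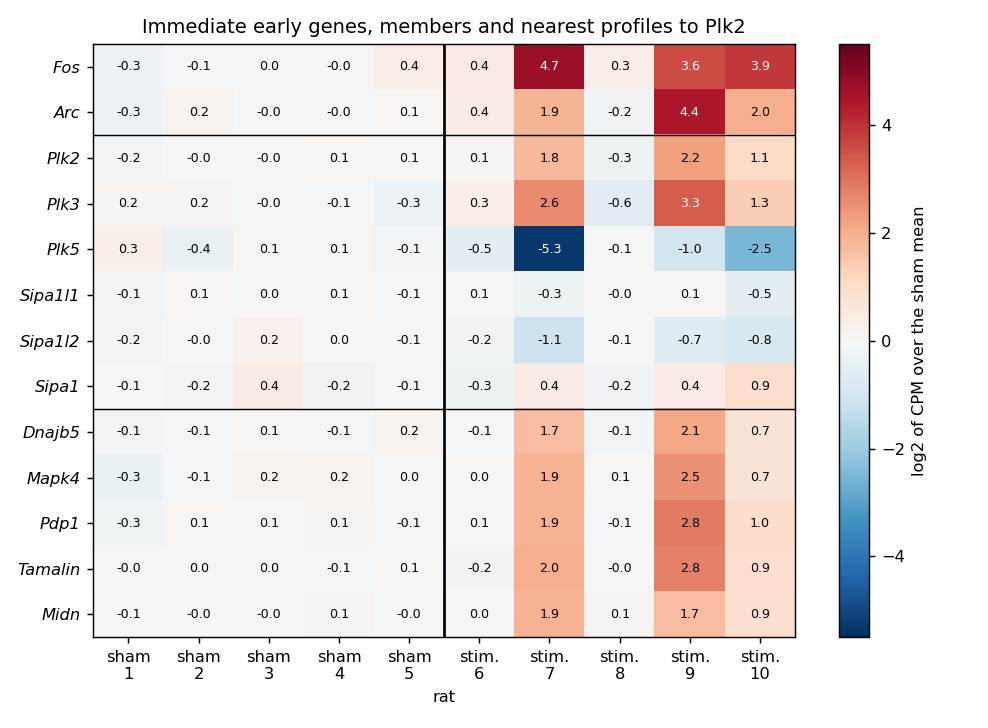
Log2 of CPM over the sham mean (colour and printed value) for Fos and Arc, the 6 members and the 5 features nearest in profile to Plk2 (lines), in each sham and stimulated rat (columns). Rats 7, 9 and 10 carry the high values of Plk2, Plk3 and the genes near Plk2 and the low values of Plk5 and Sipa1l2, while rats 6 and 8 lie close to the sham rats.

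Most genes around Plk2 and SPAR had small differences between the groups, as did the members Sipa1l1 and Sipa1. Of 43 genes listed for Plk2 substrates, Rap GTPases and their regulators, Rap effectors, the postsynaptic scaffold, the ubiquitin ligase and the other Polo-like kinases, 37 were tested. None of the 37 passed an adjusted p of 0.05 in edgeR, and at an unadjusted p under 0.05 there were 4 higher and 0 lower, which is 10.8% against 9.86% of all features. The 4 became 0 without rat 5, 1 without rat 2 or rat 7, and 2 without rat 3, 4 or 9. Their median log2 fold change was 0.02, with a range of -0.18 to 0.50 and a median size of 0.09. The 6 others, Rapgef1, Rapgef4, Rap1gap2, Garnl3, Fbxw11 and Plk4, were not matched to a row.

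Among the other substrates of Plk2 and the priming kinase, 0 of 6 had an unadjusted p under 0.05. Rasgrf1, a Ras exchange factor, had the highest mean count of this list and measured 690.0 to 840.5 CPM in sham and 542.3 to 789.0 CPM in stimulated rats (log2 fold change -0.13, SE 0.102, unadjusted p of 0.227, edgeR). Cdk5, the priming kinase, had a log2 fold change of -0.09. Of the 2 other Rap GTPase-activating proteins tested, 0 had an unadjusted p under 0.05.

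Of 5 Rap GTPases, the switches that the SIPA1 family turns off, only Rap1b had an unadjusted p under 0.05. It measured 19.89 to 24.35 CPM in sham and 21.39 to 34.08 CPM in stimulated rats, above all sham rats in 3 of 5 (log2 fold change 0.32, SE 0.128, unadjusted p of 0.0256 and adjusted p of 0.443, edgeR). Rap1a, with more reads, had a log2 fold change of 0.02 (SE 0.103). Of the 4 Rap exchange factors tested, 0 had an unadjusted p under 0.05, and Rapgef5, the one with the most reads, had a log2 fold change of 0.10 (SE 0.112).

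Rap effectors had 2 of 6 at an unadjusted p under 0.05. Rassf5, which links active Rap1 to integrins and MST kinases, had a log2 fold change of 0.48 (SE 0.193, unadjusted p of 0.0266, adjusted p of 0.446), and Map4k4, a kinase related to the Rap2 effector TNIK, one of 0.20 (SE 0.0871, unadjusted p of 0.0422, adjusted p of 0.484, both edgeR). Rassf5 measured 6.749 to 11.52 CPM in sham and 7.982 to 15.64 CPM in stimulated rats, and both genes overlapped between the groups. Mink1, the most counted of this list, had a log2 fold change of -0.08 (SE 0.0758).

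In the postsynaptic scaffold, 1 of 11 genes had an unadjusted p under 0.05, namely Dlg4, which encodes PSD-95, the binding partner of SPAR. Dlg4 measured 581.8 to 654.4 CPM in sham and 623.1 to 765.5 CPM in stimulated rats, above all sham rats in 4 of 5 (log2 fold change 0.18, SE 0.0763, unadjusted p of 0.0379, adjusted p of 0.472, edgeR). The other 10 scaffold genes, Dlg, Dlgap and Shank family members, had log2 fold changes no lower than -0.12. For the ubiquitin ligase that removes SPAR, 0 of 4 tested subunits had an unadjusted p under 0.05. The most counted, Skp1, had a log2 fold change of 0.09 (SE 0.0978), and Btrc, which encodes beta-TrCP, one of 0.06. Plk1, the mitotic kinase, was near the lower limit of counting at a mean of 18.9 reads per rat (0.3053 to 1.338 CPM in sham and 0.4591 to 2.632 CPM in stimulated rats).

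**Figure D5:**
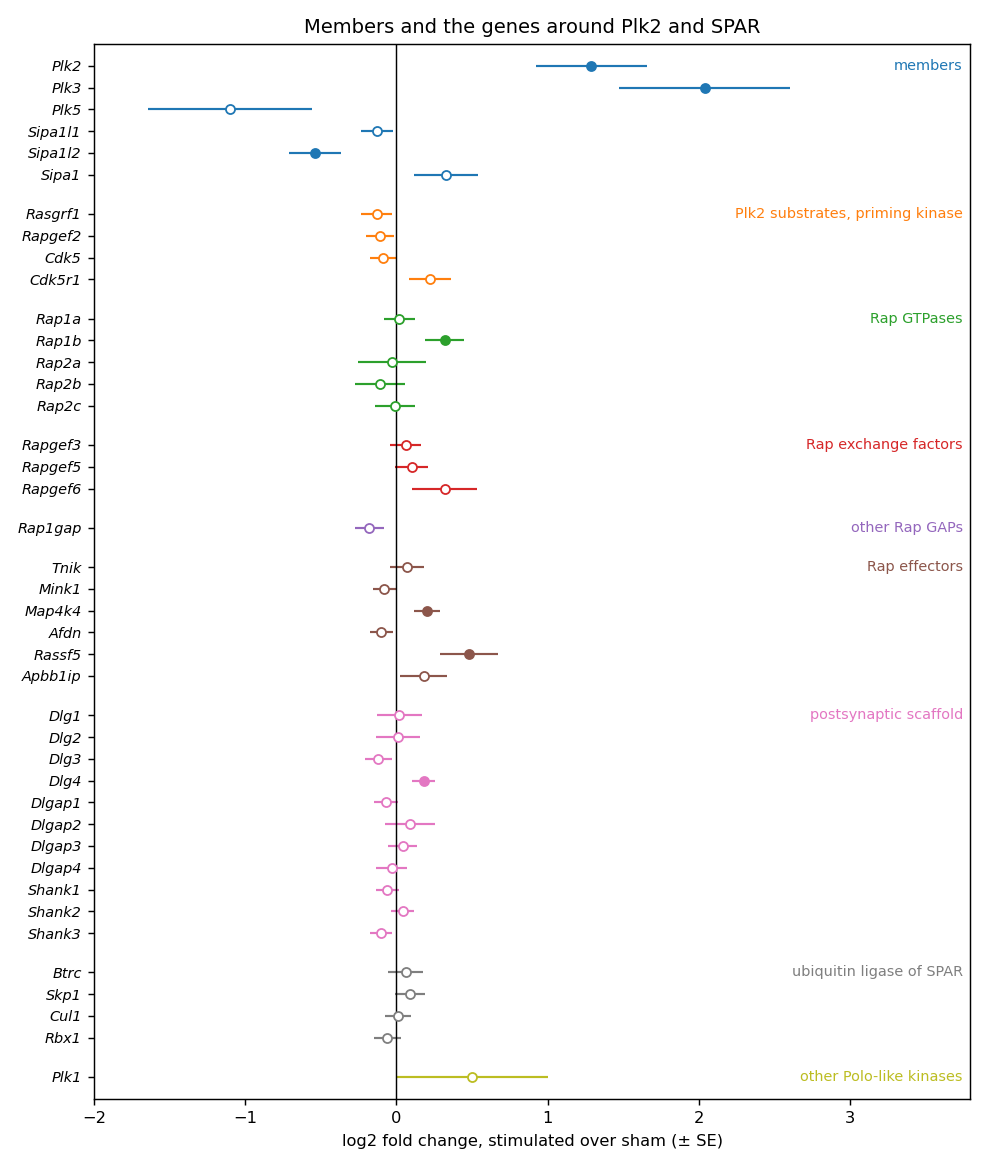
Log2 fold change, stimulated over sham (x axis; bars are the SE of the edgeR fit), of the 6 members and of genes around Plk2 and SPAR, by list; filled points have an unadjusted p under 0.05 and 0 of the genes shown pass after adjustment. The members span -1.10 to 2.04, with Sipa1l1 and Sipa1 inside the range of the other genes, -0.18 to 0.50.

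Libraries held 13552309 to 24086059 aligned counts. The share of reads not aligned was 41.4, 42.9 and 45.1% in stimulated rats 8, 9 and 10 and at most 37.1% in the other rats. Markers of the labelled tissue were present. The 8 neuronal genes had a mean log2 CPM of 8.80 to 8.93 in sham and 8.75 to 8.89 in stimulated rats, and 4 of 5 CA3 genes were tested, at 6.86 to 7.03 and 6.79 to 7.11. Of 6 granule cell genes 3 were tested (Prox1, Calb1 and C1ql2), with a mean of 5.98 to 6.38 in sham rats and 6.13, 5.56, 6.01, 6.66 and 5.64 in stimulated rats 6 to 10 (summed 243 to 298 and 159 to 355 CPM). Rats 7 and 10, the lowest for Plk5 and Sipa1l2, lay below the sham rats on this list, but rat 9 lay above them. Endothelial genes, 6 of 7 tested, were higher in 4 of 5 stimulated rats than in any sham rat, with rat 10 highest (3.90 to 4.09 in sham, 4.08 to 5.04 in stimulated rats, summed 127 to 150 and 144 to 276 CPM). Astrocyte genes, 7 of 7 tested, summed to 3680 to 4250 CPM in sham and 3710, 8600, 3900, 4740 and 7980 CPM in stimulated rats 6 to 10. Rats 7, 9 and 10, which stood apart for Plk2, Plk3, Plk5 and Sipa1l2, were above the sham rats in this sum, and rats 6 and 8 were not. Much of the sum was Gfap, at 1327 to 1927 CPM in sham and 1326 to 6469 CPM in stimulated rats. The mean log2 CPM of the astrocyte list was 8.12 to 8.41 in sham rats and 8.29, 8.4, 8.35, 8.54 and 8.61 in rats 6 to 10. On that measure rats 9 and 10 lay above the sham rats and rat 7 lay within their range. Aldh1l1 and Aldoc of this list had log2 fold changes of -0.27 and -0.11. In the endothelial and in the astrocyte list 4 genes each were higher at an unadjusted p under 0.05 and 0 after adjustment in edgeR. Oligodendrocyte (6 of 6 tested), microglial (7 of 7), CA1 (5 of 5) and choroid plexus genes (4 of 4) ranged over 7.80 to 8.54, 4.91 to 5.36, 3.04 to 4.71 and -0.10 to 1.11 in stimulated rats, against 8.12 to 8.65, 4.80 to 5.18, 3.35 to 4.36 and -0.94 to 0.88 in sham rats. The microglial sum was 286 to 363 CPM in sham and 312, 461, 320, 439 and 379 CPM in stimulated rats 6 to 10. Rats 7, 9 and 10 were above the sham rats in this sum too. In the microglial mean log2 CPM, rats 7 and 9 lay above the sham rats and rat 10 within their range. Npas4 of the immediate early list and Kl of the choroid plexus list were at 0 in at least 1 rat. The part of cell makeup, of unaligned reads and of the immediate early level in the values of the members was not tested.

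Each result for Plk2, Plk3 and Sipa1l2 kept its direction and an unadjusted p under 0.05 when any 1 of the 10 rats was left out. The log2 fold change of Plk2 was 0.90 without rat 9 and 1.49 without rat 8, that of Plk3 was 1.39 and 2.30 without the same rats, and that of Sipa1l2 was -0.42 without rat 7 and -0.69 without rat 8. The calls of Plk5 and Sipa1 turned on single rats. The log2 fold change of Plk5 was -0.79 (unadjusted p of 0.0308, edgeR) without rat 7 and -1.52 (unadjusted p of 0.015) without rat 8. Its unadjusted p was also under 0.05 without rat 6 (0.0457) but not without any of the others. Sipa1 had an unadjusted p of 0.0457 without rat 6, and its log2 fold change was 0.13 without rat 10. Sipa1l1 had no unadjusted p under 0.05 in any of the 10 omissions.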

How the data were processed

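The members and gene lists were chosen with earlier results of these data known, and the study itself had named Plk2, Plk3 and Sipa1l2. The authors deposited 1 matrix of raw counts (whole reads per transcript and rat), made from oligo(dT)-selected RNA read for 36 cycles. Per the labels and the study's methods, reads were aligned to rn4 with BWA and counted per gene of an Ensembl annotation, yet the rows carry RefSeq identifiers; strand and the handling of shared reads are not given in the sources used here, so overlapping genes and isoforms of 1 gene are uncertain. The labels give no batch. The methods count fewer stimulated animals than the labels, so all 10 rats were used and each was left out in turn.

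Groups came from the treatment label and columns from the rat number. Unaligned reads, given as a row of their own, were not used. Features with a summed count below the 30th percentile (46 counts) were left out and 22447 were tested, 12970 (57.8%) with a symbol from RefSeq. Stimulated and sham rats were compared in R 4.3.3 with edgeR 4.0.16 (TMM factors, quasi-likelihood test, no covariates), and p-values were adjusted over every tested feature by Benjamini-Hochberg. The SE, interval and fold change come from this fit, and log2 CPM used a prior count of 2. Alternatives were RLE factors, scaling by library size, a filter of at least 10 counts in 4 samples or none, the likelihood ratio and exact tests, limma-voom 3.58.1, DESeq2 1.42.0, adjusted deviances, summed rows of a symbol and the omission of each rat. Single members were also compared with exact permutation tests, two-sided, in Python 3.11.15, and Poisson intervals were computed with scipy 1.17.1. The steps were tested on simulated data. Poisson intervals and shares cover counting error only, since reads are not marked molecules.

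The named genes were all members, the pathway genes with an unadjusted p under 0.05 and the most counted of each list, the 5 nearest profiles to Plk2, and Fos and Arc. A few others of the lists were added as examples. Some genes that this rule or the lists include are not reported here by name. Promoters came from RefSeq on GRCr8, for 5 of 7 members. No genome of the rn4 build was used here.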

Additional observations from a re-analysis of the deposited data

Results flagged for a closer look

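Sipa1 in sham rat 3 stood apart from the other sham rats, at 24.6 CPM against 16.2 to 17.4 CPM in the other 4. In log2 CPM, the gap to the nearest rat was 0.826 of the whole range of the group, above the critical value of Dixon's test for 5 samples, 0.71. Of 16 groups of values tested this was the only one, where chance passes about 1 in 20 groups. Without this rat the log2 fold change of Sipa1 was 0.46.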

How the results depend on the processing

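The number of features at an adjusted p under 0.05 was 0 in the quasi-likelihood test of edgeR and 119 in its likelihood ratio test, 90 in its exact test and 32 in DESeq2. Among the members the number was 0 in the quasi-likelihood test and 1 in the likelihood ratio test, Plk3 (adjusted p 0.0469, range over all settings 0.0469 to 0.66). The number of members at an unadjusted p under 0.05 was 3 with all rats and 3 to 5 when 1 rat was left out, 5 without stimulated rat 6 (all features, 2214 and 3131). By the exact permutation test it was 2, both lower. For the pathway genes it was 4 with all rats, 2 with no filter, 2 in the likelihood ratio test, 2 in the exact test and 0 to 4 when 1 rat was left out, with 0 without sham rat 5. Plk5 also had an unadjusted p under 0.05 with no filter (0.0454), adjusted deviances (0.0351) and limma-voom (0.01, log2 fold change -1.93 against -1.10). The cause was not tested. Over 20 settings, no value changed direction, 103 summary counts stayed within 1.5 times and 14 did not, and 232 values of single members kept their side of the threshold while 8 came to pass it. Depth limits Plk5 in rat 7, at 10 reads, and Plk1. No paired analysis was possible because the groups share 0 replicate numbers.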

Other observations

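The profiles nearest to the other members, chosen after their values were seen, are given as values. Nearest to Plk3 over the 10 rats were Egr4, Klf10, Gadd45b, Baz1a and Bdnf, which differed from it by a root mean square of 0.288 to 0.327 in centred log2 CPM. Egr4 is an immediate early transcription factor and Bdnf a neurotrophin made in active neurons. Nearest to Sipa1l2 were Jph4, a junctophilin of neurons, at 0.0992, and Pip5k1b, Plcxd2, Plxdc1 and Pnma2, at 0.108 to 0.141. Nearest to Plk5 were Nhlh1, Tcerg1l, Rasd2, Gpc3 and Cxcl12, but at 0.789 to 0.876, so no compared feature came nearer to Plk5 than 0.789. The median compared feature differed by 1.82 from Plk5, by 1.42 from Plk3 and by 0.546 from Sipa1l2. The distances of different members therefore cannot be compared directly. Nhlh1, a helix-loop-helix factor of developing neurons, measured 0.325 CPM in rat 7 and 28.04 ± 5.216 CPM in sham rats (SD, n = 5). These likenesses were not tested.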
